A study of Homo sapiens with 28 samples.

Results

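Small nucleolar RNAs (snoRNAs) were followed in total RNA from SEM cells, a human B-cell acute lymphoblastic leukemia line, before and after auxin treatment of cells whose CTCF protein carries a degron. An annotated gene was taken as a member when its symbol started with SNORA or SNORD and its level exceeded 1 CPM (its count over the library total, times 1000000) in at least 4 of the 28 libraries. Of 57820 annotated genes, 805 carried such a symbol, 497 of these had no count in any library, and 74 met the rule. The members comprised 58 H/ACA genes (SNORA) and 16 C/D genes (SNORD). The members were chosen by these CPM values, so their levels are given as a description without a test, whereas the auxin contrasts were not used by the rule. The members just inside the threshold had a fourth-highest CPM of 1.01 (SNORA21, ENSG00000252699), 1.02 (SNORA2A) and 1.05 (SNORA2B), and the genes just outside it reached 0.991 (SNORD33), 0.987 (SNORA22, ENSG00000207344) and 0.828 (SNORA64, ENSG00000207187).

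The 16 libraries of the 6 h set came from degron cells that additionally carried HA-tagged CTCF in a doxycycline-inducible vector. There were 4 lines with 2 libraries without auxin (no IAA) and 2 with IAA each. The CTCF of the vector was full length (WT) or lacked zinc finger 1 (DeltaZ1), zinc finger 10 (DeltaZ10) or the RNA binding region (DeltaRBR). Titles of this set name only IAA or noIAA, whereas the study's methods pair 5-Ph-IAA with doxycycline in these lines. The 6 h contrasts may thus combine auxin, doxycycline and induced CTCF, which cannot be told apart here. The 12 libraries of the 24 h set came from CTCFAID2 cells without auxin or with 5-Ph-IAA (4 libraries each) and from WT SEM cells, which lack the degron, without or with IAA (2 libraries each). In the degron lines, endogenous CTCF was fused to AID and mClover3, and the F74G form of OsTIR1, which recruits the tagged protein for degradation, was expressed from a lentiviral MND promoter, so all cells of these lines carry both alterations with or without auxin. CTCFAID2 was derived from an earlier AID1 degron line that carries a doxycycline-inducible wild-type OsTIR1 at a safe harbor locus, so the degron lines carry this as well. The study reports leaky CTCF degradation in the AID1 line with doxycycline alone. Where doxycycline was given at 6 h, induced wild-type OsTIR1 may thus be a further part of those contrasts that cannot be told apart. The sample titles give 1 µM 5-Ph-IAA for CTCFAID2 at 24 h, the treatment text gives 10 µM, and the same text pairs WT SEM with IAA and not with 5-Ph-IAA, so the compound may differ between these lines. Per the study's methods doxycycline accompanied IAA in WT SEM cells, and what is called IAA there may thus stand for both agents. No label states that replicates were separate cultures, and p-values here therefore speak only to how far these libraries scatter, and that scatter may be technical. The B-lineage marker PAX5 fitted the label (388 to 800 CPM over all libraries), the lymphoid precursor marker DNTT was at 0.0802 to 1.084 CPM, and the T-cell marker CD3D was at 0. LYZ, a myeloid gene, was at 2.84 to 46.2 CPM and MPO at no more than 0.387 CPM. LYZ fell with auxin in CTCFAID2 cells (-0.97 on the log2 scale), in WT SEM cells (-0.35) and in the 6 h mean (-1.54), and its part in the results was not tested.

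The snoRNAs are stable nucleolar RNAs that guide modification of ribosomal and spliceosomal RNA. C/D snoRNAs guide 2'-O-methylation with fibrillarin, and H/ACA snoRNAs guide pseudouridylation with dyskerin. A few, including U3, U8 and U17, act in cleavage and folding of the ribosomal RNA precursor instead. Most human snoRNAs are cut from introns of host genes, while U3 and U13 have promoters of their own.

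The sequences of the most abundant members, and of members whose level differed after auxin, were read from GRCh37 (hg19). The first stretch of SNORD3A, the main U3 gene and the source of most snoRNA counts, lies at chr17:19091329-19091545 on the + strand, and the capitals mark its box D letters, CTGA.
SNORD3A: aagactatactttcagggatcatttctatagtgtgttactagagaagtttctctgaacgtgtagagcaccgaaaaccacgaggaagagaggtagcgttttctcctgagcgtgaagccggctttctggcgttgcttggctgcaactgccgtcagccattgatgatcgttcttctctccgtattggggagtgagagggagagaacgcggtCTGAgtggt
SNORA73B (U17b, chr1:28835071-28835274, +, in an intron of RCC1) and SNORD17 (chr20:17943353-17943589, -, in an intron of SNX5) are the H/ACA member with the highest mean CPM and the C/D member with the highest mean CPM outside the U3 genes. Capitals mark the ACA letters within the last 12 bases and the match to ANANNA nearest the middle, the letters of an H box, in SNORA73B, and the box C and box D letters in SNORD17.
SNORA73B: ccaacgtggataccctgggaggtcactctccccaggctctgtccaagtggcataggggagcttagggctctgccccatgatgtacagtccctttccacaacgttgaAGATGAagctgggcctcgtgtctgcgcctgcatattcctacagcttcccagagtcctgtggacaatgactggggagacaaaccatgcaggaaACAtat
SNORD17: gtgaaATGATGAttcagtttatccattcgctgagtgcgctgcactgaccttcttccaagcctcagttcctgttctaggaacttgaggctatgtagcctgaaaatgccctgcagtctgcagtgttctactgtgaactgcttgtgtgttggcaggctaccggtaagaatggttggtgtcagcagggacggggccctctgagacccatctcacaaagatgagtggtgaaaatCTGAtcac
SNORA71A (chr20:37055952-37056085), SNORA71C (chr20:37058313-37058446) and SNORA71D (chr20:37062508-37062641), all on the - strand of SNHG17, are shown together because all 3 fell in CTCFAID2 cells. SNORA53 (chr12:98993413-98993661, +, overlapping an exon of SLC25A3) rose. Capitals are as for SNORA73B.
SNORA71A: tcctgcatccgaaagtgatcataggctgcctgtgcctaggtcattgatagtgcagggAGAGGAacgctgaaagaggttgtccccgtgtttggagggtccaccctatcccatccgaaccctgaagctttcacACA
SNORA71C: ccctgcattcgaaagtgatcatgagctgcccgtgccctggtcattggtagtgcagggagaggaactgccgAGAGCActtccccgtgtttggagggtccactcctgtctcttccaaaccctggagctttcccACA
SNORA71D: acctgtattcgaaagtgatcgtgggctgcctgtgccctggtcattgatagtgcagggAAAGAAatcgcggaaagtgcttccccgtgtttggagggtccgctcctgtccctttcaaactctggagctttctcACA
SNORA53: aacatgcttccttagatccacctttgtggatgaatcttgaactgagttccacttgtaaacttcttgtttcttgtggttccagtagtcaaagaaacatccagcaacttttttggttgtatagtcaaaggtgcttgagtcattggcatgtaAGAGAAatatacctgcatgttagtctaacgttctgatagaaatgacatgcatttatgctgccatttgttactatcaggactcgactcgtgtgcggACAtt
The SNORA71 copies are 134 bases each and identical at 82.8% (A and C), 82.1% (A and D) and 85.8% (C and D) of positions. Letters were searched on the transcribed strand only. Among the 54 H/ACA members of biotype snoRNA, 51 held ACA in the last 12 bases, against 11.1% of the regions of the same length directly before each, and 53 held ANANNA at least 40 bases from either end, against 59.3%. Among the 8 C/D members of that biotype, 7 held CTGA in the last 40 bases, against 12.5% of the regions before them. Box C letters were found in 5 of these 8, also against 12.5%. A match describes letters and does not identify a box.

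The members were not a sample of all snoRNA genes. The 62 members of biotype snoRNA measured 104 to 249 bases (median 135). The other 12, of other biotypes and annotated under a snoRNA name, are called longer transcripts here. They measured 272 to 9199 bases where a position was found, which was not so for SNORD109A. Of 383 annotated SNORD genes of biotype snoRNA, 361 were shorter than 100 bases and 0 of these were members, whereas 8 of the 22 longer ones were. A gene on the same strand contained 65 members, and was protein coding for 56. Partial overlaps, such as that of SNORA67 with EIF4A1, were not counted. Ribosomal protein genes hosted 14 members, and 33 members overlapped an exon of the host, where reads of the host and of the snoRNA cannot be fully told apart.

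U3 dominated the counts. SNORD3A had a mean of 14084 CPM over the 28 libraries, and SNORA73B, which acts in processing of the precursor of 18S ribosomal RNA, had 525 CPM. SNORD3B-2 (437 CPM), SNORD17 (153 CPM), SNORD3D (92.5 CPM), SNORD3B-1 (89.96 CPM), SNORD116-20 (89.1 CPM), SNORA48 (83.9 CPM), SNORA63 (ENSG00000200320, 65.1 CPM) and SNORD3C (58.0 CPM) followed. Counts of a long transcript and of a short one are comparable only per length. In the deposited TPM, which divides by an effective length that is unreliable for RNAs near the fragment size, SNORD3A remained first at a mean of 111437, and SNORA48 (5214), SNORA73B (5118), SNORA63 (4809), SNORD3B-2 (3449) and SNORD13 (3268) came next. The other U3 genes each held the first bases of SNORD3A within 1 to 3 edits, so the split of U3 reads among the 5 genes is uncertain. SNORA48 and SNORD10 lie within the 9199-base SNORA67 entry and share its reads in part. The U14 genes SNORD14A to SNORD14E, which also act in precursor processing, were all below 1 CPM in every library.

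The summed level of the members separated libraries more than auxin did. Library totals were 25.8 to 60.7 (counts divided by 1000000), so a level of 1 CPM rested on that number of counts. At 6 h the sum was 14814 to 19852 CPM in 14 of 16 libraries, 6822 in DeltaRBR no IAA replicate 1 and 984 in DeltaZ1 IAA replicate 2. At 24 h it was 16599 to 21912 CPM in the 8 CTCFAID2 libraries, 7419 and 13842 in WT without IAA, and 13730 and 20063 in WT with IAA. The members made up about the same part of the library in both states of the CTCFAID2 cells, at 18240 ± 2472 CPM without and 18551 ± 981 CPM with 5-Ph-IAA (mean ± SD, n = 4 each).

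**Figure D1:**
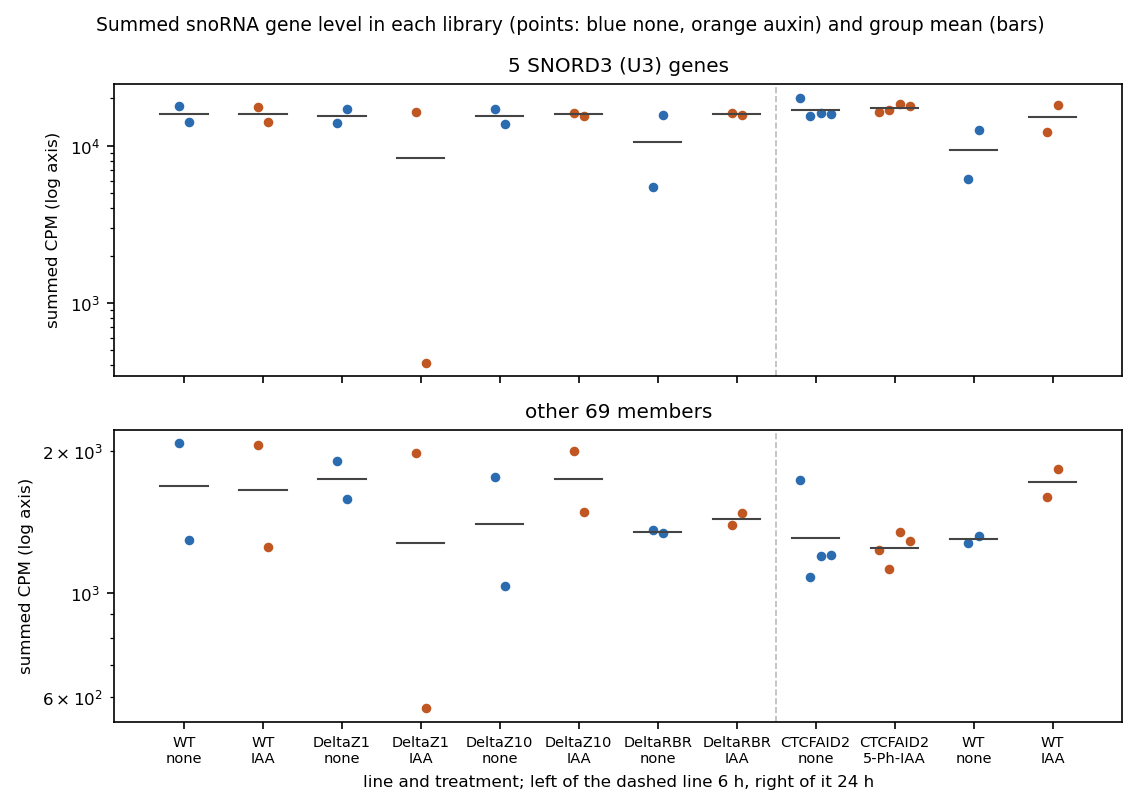
Summed CPM (log axis) of the 5 SNORD3 genes (top) and of the other 69 members (bottom) in each library, with points for libraries (blue without auxin, orange with auxin) and bars for group means. DeltaZ1 IAA replicate 2 lies at 417 CPM in the top panel and 567 CPM in the bottom panel, below every other library in both.

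DeltaZ1 IAA replicate 2 was low across most of the class. SNORD3A was at 366 CPM there and at 5288 to 17435 CPM in the other 15 libraries at 6 h, and its share of the member counts was 37.2% against 77.5% to 91.0%. The median member reached 18.6% of its median over those other libraries, and 54 of 74 members had their lowest 6 h value there. Members of biotype snoRNA up to 160 bases stood at a median of 15.6% (55 genes), and the longer ones of that biotype at 59.8% (7 genes). The 12 longer transcripts of other biotypes stood at a median of 30.0% (2.37% to 98.6%). Several of these entries hold a shorter snoRNA, among them the SNORD3 genes, SNORA67 and SNORA76. The length of an entry is therefore not always that of the RNA counted, and whether the values follow RNA length was not tested. The low values did not cover every small RNA: the small Cajal body RNAs summed to 1256 CPM, within the range of 999 to 1310 over the set, and RN7SK was at 45584 CPM against 33640 to 44856 elsewhere. RMRP was low at 2917 CPM against 5364 to 7194, and RPPH1 at 7496 CPM against 8199 to 14905. SNORA64, SNORA46, SNORA3, SNORA10 and SNORA6 had a count of 0 in this library, which allows a level of up to 0.0673 CPM (3 counts, counting error only).

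**Figure D2:**
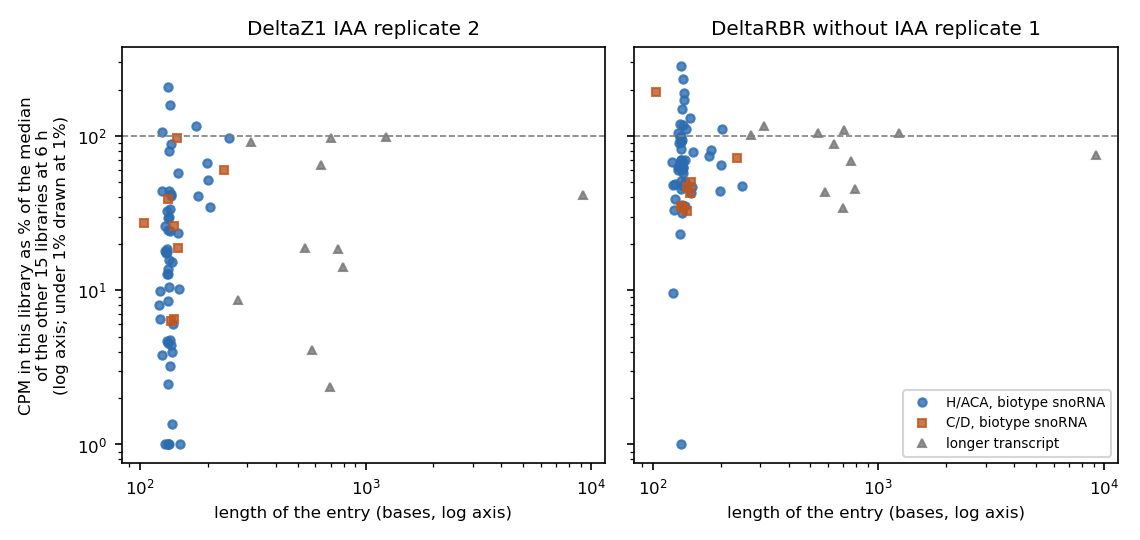
CPM of each member in DeltaZ1 IAA replicate 2 (left) and DeltaRBR no IAA replicate 1 (right), as a percentage of its median over other libraries at 6 h (log axis, values under 1% drawn at 1%), against the length of the entry in bases (log axis). Circles mark H/ACA and squares C/D members of biotype snoRNA, and triangles mark longer transcripts. The left median is over the other 15 libraries. The right one also leaves out DeltaZ1 IAA replicate 2, although the axis label names 15. On the left most members up to 160 bases lie far below the dashed 100% line (median 15.6%), and on the right the same class lies nearer to it (median 62.9%).

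Other libraries stood apart more mildly. DeltaRBR no IAA replicate 1 had a median of 68.97% of the other libraries of its set over the expressed members, with the lowest value for 9 members. CTCFAID2 no IAA replicate 1 had the highest CTCFAID2 value for 62 of 74 members and a median of 163% of the other 7. WT IAA replicate 2 at 24 h had the highest value of its line for 52 of 74 members, at a median of 141%. In the 6 h lines WT, DeltaZ1 and DeltaZ10, replicate 1 libraries lay at 112.8% to 146% and replicate 2 libraries at 18.6% to 117%. DeltaRBR went the other way, with replicate 1 at 68.97% without and 88.6% with IAA, and replicate 2 at 84.3% and 94.2%. Whether library preparation, RNA integrity or cell state accounts for these differences was not tested, and in bulk RNA fewer cells of a type and less RNA per cell cannot be told apart. Results that rest on these libraries are therefore given with and without them.

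In CTCFAID2 cells, 24 h of 5-Ph-IAA changed few snoRNA genes. Of the 71 members tested (SNORA6, SNORA63 with identifier ENSG00000200418 and SNORD15A were below the filter in this set), 6 passed at an adjusted p of 0.05, 1 higher and 5 lower (limma-voom, Benjamini-Hochberg over 13973 genes), where 58.7% of all genes passed, 29.2% higher and 29.5% lower. The count was 2 without 5-Ph-IAA replicate 1 and 13 without no IAA replicate 2. The median log2 fold change of the members was -0.11 and that of all genes was -0.0024, and the members had a median standard error of 0.193 against 0.0503, so a change of a given size passed less readily among them. No member changed by the called size of 1 on the log2 scale, which 3.56% of all genes did.

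The SNORA71 group fell. SNORA71A was at 19.6, 13.4, 13.9 and 12.7 CPM without and 10.9, 10.3, 13.01 and 10.9 CPM with 5-Ph-IAA. SNORA71D was at 7.00, 3.65, 4.06 and 3.58 CPM without and 2.67, 3.53, 2.90 and 3.19 CPM with it. The treated libraries of SNORA71D all lay below the untreated ones, and those of SNORA71A overlapped them by 1 library. The log2 fold changes were -0.40 for SNORA71A (SE 0.14, adjusted p = 0.0213), -0.49 for SNORA71C (SE 0.18, adjusted p = 0.0293) and -0.54 for SNORA71D (SE 0.22, adjusted p = 0.0449) by limma-voom, and SNORA71B, a longer entry at 0.760 CPM on average, was at -0.55 (adjusted p = 0.157). SNHG17, the noncoding gene that contains all 4, fell from 37.7 ± 1.03 to 23.6 ± 0.827 CPM (mean ± SD, n = 4), a log2 fold change of -0.70 (SE 0.04, adjusted p = 1.98e-09 by limma-voom). SNORA71A, SNORA71C and SNORA71D overlap an exon of SNHG17, so their fall and that of the host may rest in part on the same reads. Without CTCFAID2 no IAA replicate 1, the library with high snoRNA levels, SNORA71A stood at -0.27 (adjusted p = 0.0392 by limma-voom) and SNORA71C and SNORA71D no longer passed.

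SNORD13 (U13), a C/D RNA with its own promoter that acts in maturation of 18S ribosomal RNA, fell. Its levels were 44.9, 18.8, 21.9 and 16.1 CPM without and 11.8, 10.1, 20.4 and 13.7 CPM with 5-Ph-IAA. The groups overlapped, and the highest value was that of CTCFAID2 no IAA replicate 1. The log2 fold change was -0.80 (SE 0.29, adjusted p = 0.0267 by limma-voom) and -0.49 (adjusted p = 0.0372) without that library.

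SNORA76 was at 13.7, 11.4, 12.3 and 10.7 CPM without and 7.62, 9.92, 8.26 and 10.1 CPM with 5-Ph-IAA, with no overlap. It fell by 0.45 on the log2 scale (SE 0.13, adjusted p = 0.00803 by limma-voom). Its entry is a 540-base noncoding transcript at chr17:62223297-62223836 that also holds the sequence of the C/D gene SNORD104, so the reads cannot be assigned to SNORA76 alone.

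SNORA53 was the member that rose. It was at 35.9, 25.1, 25.6 and 30.0 CPM without and 35.4, 30.3, 37.1 and 38.5 CPM with 5-Ph-IAA, and the overlap was due to replicate 1 without auxin. The log2 fold change was 0.26 (SE 0.10, adjusted p = 0.0433 by limma-voom), and 0.36 (adjusted p = 0.00225) without that library. Its host SLC25A3, the mitochondrial phosphate carrier, was at -0.09 (adjusted p = 0.00411). Non-overlap of the groups was seen for SNORA76 and SNORA71D only among the 71 members tested, both lower with auxin, where 24.2% of all genes tested had every treated library below every untreated one and 27.9% had every one above.

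**Figure D3:**
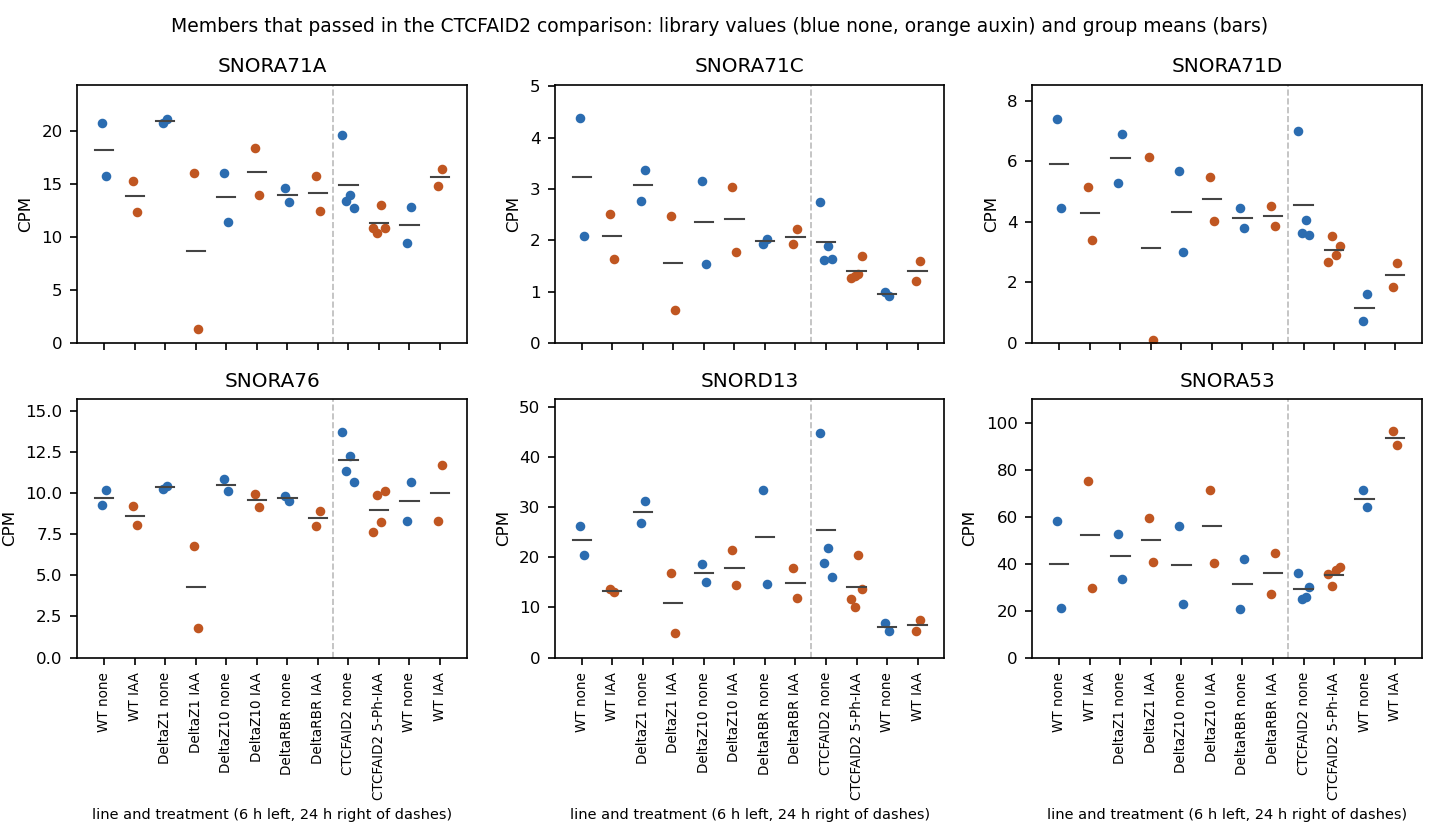
CPM of the 6 members that passed in the CTCFAID2 comparison in every library, with points for libraries (blue without auxin, orange with auxin), bars for group means, and 6 h groups left and 24 h groups right of the dashed line. CTCFAID2 no IAA replicate 1 is the highest point of its group in all 6 panels, at 44.9 CPM for SNORD13, and DeltaZ1 IAA replicate 2 is near 0 for SNORA71D at 0.112 CPM.

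In WT SEM cells, which have no degron, the members that changed with 24 h of IAA all rose. Of 71 members, 7 passed and all 7 rose, where 18.9% of all genes passed, 9.35% higher and 9.57% lower, and 1.1% were called at a change of at least 1 on the log2 scale. The median was 0.40 against 0.015 over all genes (log2). SNORA46 rose by 1.81 (SE 0.57, adjusted p = 0.0384 by limma-voom), from 0.376 and 0.841 CPM to 1.47 and 2.58 CPM. SNORD3D, a U3 gene, rose by 1.54 (SE 0.24, adjusted p = 0.000656 by limma-voom), from 239 and 368 CPM to 1243 and 588 CPM. For both genes every IAA library lay above every untreated one.

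The other members that rose in WT cells were SNORA34 (0.87), SNORA79 (0.56), SNORD64 (0.50), SNORA53 (0.48) and SNORD116-20 (0.20). Of the 71 members tested, 45 had both IAA libraries above both untreated ones and 1 had both below, where 28.4% and 28% of all genes tested did. Other short RNAs were also higher with IAA in these libraries: their sum was 25122 and 25795 CPM without and 29239 and 32259 CPM with IAA, the small Cajal body RNAs summed to 1142 and 1063 CPM without and 1339 and 1248 CPM with it, and RPPH1 was at 12585 and 11701 CPM without and 13909 and 14670 CPM with it. With the other short RNAs as a covariate 1 of the 7 members that rose still passed, and with libraries scaled to the member total 0 did. Without WT no IAA replicate 1, whose member sum was 7419 CPM, SNORD3D alone passed (1.20, adjusted p = 0.0152 by limma-voom), 3 members passed without WT no IAA replicate 2, 2 without WT IAA replicate 2, and 22 passed without CTCFAID2 no IAA replicate 1. The WT libraries at 24 h also differed in the deposited values, in that 2.73% to 2.82% of genes had non-whole counts, against 6.34% to 7.84% in all others. In them SNORD3D and SNORD3C were at 239 to 1243 CPM, against at most 8.62 CPM elsewhere, so levels of U3 genes cannot be compared between these libraries and the others.

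The auxin effect was lower in CTCFAID2 than in WT cells for 10 members, and higher for 0, where 40.2% of all genes passed in this test of the difference, 19.3% higher and 20.9% lower, and 4.87% were called at a difference of at least 1 on the log2 scale. The median difference was -0.56 on that scale, against -0.022 over all genes. SNORA26, hosted by the noncoding gene DANCR, had the largest difference at -1.63 (SE 0.54, adjusted p = 0.0267 by limma-voom). It was at 1.74, 1.18, 0.873 and 1.47 CPM without and 0.777, 0.8285, 1.45 and 0.818 CPM with 5-Ph-IAA in CTCFAID2 cells, and at 0.282 and 0.450 CPM without and 0.613 and 1.02 CPM with IAA in WT cells. SNORA71D (-1.62), SNORD3D (-1.53), SNORA80B (-1.51), SNORA64 (-1.37), SNORA84 (-1.05), SNORA71C (-1.04), SNORA34 (-0.94), SNORA71A (-0.92) and SNORA23 (-0.81) followed. None of SNORA26, SNORA80B, SNORA64, SNORA84, SNORA34, SNORA23 and SNORD3D passed in CTCFAID2 cells themselves. Without WT no IAA replicate 1 the count was 2 (SNORA23 and SNORD3D), without WT IAA replicate 2 it was 4, without WT IAA replicate 1 it was 20 and without CTCFAID2 no IAA replicate 2 it was 17. The line, the compound, the doxycycline and the processing of the WT libraries cannot be told apart in this difference.

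At 6 h the DeltaZ1 cells gave the largest shift of the members, and it rested on DeltaZ1 IAA replicate 2. With all libraries 24 of 74 members fell, 22 of them by at least 1 on the log2 scale, where 33.6% of all genes passed, 17.1% higher and 16.4% lower, and 3.06% were called at that size. The median was -1.46 against -0.0062 over all genes. SNORA64, hosted by RPS2, had the largest estimate, at -5.60 (SE 1.97, adjusted p = 0.0456 by limma-voom). It was at 16.5 and 17.6 CPM without IAA and at 17.8 and 0 CPM with IAA. SNORA3, hosted by RPL27A, was at 1.75 and 2.76 CPM without IAA and at 1.86 and 0 CPM with IAA (-4.14). For SNORA71D the values were 5.30 and 6.92 CPM without and 6.13 and 0.112 CPM with IAA (-3.00). Thus the IAA replicate 1 library lay within or near the untreated range for these members, as it also did for SNORA80 (-2.87) and SNORA77 (-2.69).

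Without DeltaZ1 IAA replicate 2, SNORA76 was the only member that passed in DeltaZ1 cells, falling by 0.64 on the log2 scale (adjusted p = 0.00464 by limma-voom). It was at 10.3 and 10.5 CPM without IAA and at 6.81 CPM in the remaining IAA library, whose spread is then taken from the other groups. The median over the members was -0.029, and 21.6% of all genes passed. SNORA64 stood at 0.033, SNORA71D at -0.01 and SNORA77 at -0.10 in that fit. Leaving out IAA replicate 1 instead, so that the low library stood alone, gave 52 members, leaving out no IAA replicate 1 or 2 gave 3 and 1, and leaving out DeltaRBR IAA replicate 1 or 2 gave 15 each. On all libraries edgeR gave 4 and DESeq2 gave 3. In the test of the DeltaZ1 effect against the mean of the other 3 lines, 0 members passed by limma-voom, where 1.41% of all genes did (0.813% higher, 0.597% lower, 0.0935% called), although 41 had an unadjusted p under 0.05. There edgeR gave 0 and DESeq2 gave 1. Without DeltaZ1 IAA replicate 2, 0 passed and the median of the difference moved from -1.54 to -0.17, and without IAA replicate 1 the count was 49.

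**Figure D4:**
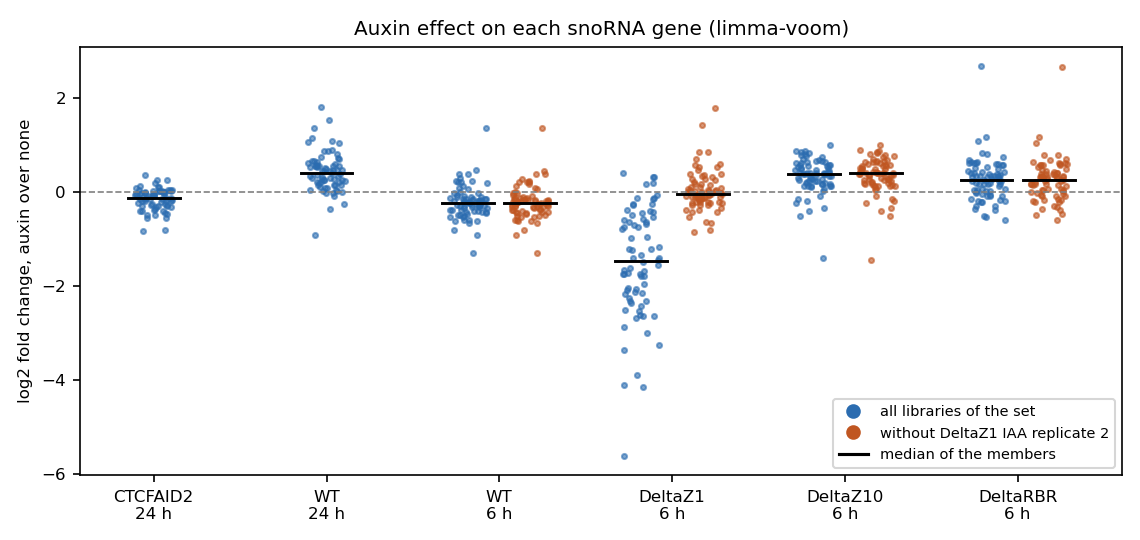
log2 fold change of each member, auxin over none, in the 6 lines and times, with blue points for the fit on all libraries, orange points for the 6 h fit without DeltaZ1 IAA replicate 2 and black bars for medians. The DeltaZ1 median moves from -1.46 to -0.029, whereas the WT median at 6 h stays at -0.22.

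In the other 6 h lines few or no members passed. WT cells had 2 that fell, SNORD3D by 0.91 (SE 0.25, adjusted p = 0.0308) and SNORD109A by 0.64 (SE 0.18, adjusted p = 0.0381) on the log2 scale by limma-voom, where 13.7% of all genes passed (6.45% higher, 7.21% lower, 1.72% called), and the median was -0.22. Neither passed without WT no IAA replicate 2, WT IAA replicate 1 or WT IAA replicate 2, and 1 passed without WT no IAA replicate 1 or either DeltaZ1 no IAA library. DeltaZ10 had 0 that passed (18.1% of all genes, 8.89% higher, 9.24% lower and 1.79% called, median 0.39, 2 members with an unadjusted p under 0.05), and edgeR and DESeq2 also gave 0. DeltaRBR had 0 as well (10.5% of all genes, 4.80% higher, 5.68% lower and 1.14% called, median 0.27, 1 member with an unadjusted p under 0.05, and 0 by edgeR and DESeq2). DeltaZ1 IAA replicate 2 also widened the spread used for these lines: the median standard error of the members in WT cells was 0.595 with it and 0.357 without it, and 24.2% of all genes then passed in WT cells. Without it, 3 members passed in WT cells, SNORD116-20 being added, 1 in DeltaZ10 (SNORA54, 0.42) and 0 in DeltaRBR.

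Averaged over the 4 lines, 6 members fell with IAA at 6 h and 0 rose, where 51.5% of all genes passed, 25.1% higher and 26.4% lower, 1.45% were called, and the median was -0.27 against -0.0094 over all genes. Without DeltaZ1 IAA replicate 1, so that the low library stood alone, the count was 41. Without DeltaZ1 IAA replicate 2 the same 6 fell, SNORD17 rose (0.19, adjusted p = 0.017 by limma-voom) and the median turned to 0.15. Of the 6, 5 were among the 12 longer transcripts and 1 was among the 62 members of biotype snoRNA.

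SNORD109A, SNORD64 and SNORD116-20 belong to the imprinted 15q11-q13 cluster, whose snoRNAs lie in a long transcript expressed from the paternal copy in neurons and other tissues. These were the only members among the 162 annotated genes of the imprinted snoRNA clusters. SNORD64 and SNORD116-20 stand for long entries and not for the short snoRNA alone, and the length of the SNORD109A entry was not found. SNORD109A was at 2.17 to 2.91 CPM (median 2.54) in the 8 untreated and 1.56 to 2.18 CPM (median 1.89) in the 8 IAA libraries, lower in 4 of 4 lines. Its log2 fold change was -0.49 (SE 0.09, adjusted p = 0.000684 by limma-voom). SNORD64 was at 2.97 to 3.80 CPM (median 3.25) without and 2.21 to 3.09 CPM (median 2.84) with IAA, also lower in 4 of 4 lines (-0.24, SE 0.08, adjusted p = 0.0242 by limma-voom). SNORD116-20 was at 88.6 to 96.6 CPM (median 92.4) without and 79.9 to 91.7 CPM (median 87.2) with IAA, lower in 4 of 4 lines by a mean of only 0.10 on the log2 scale (SE 0.03, adjusted p = 0.0157 by limma-voom). The untreated and IAA libraries overlapped for all 3, least for SNORD109A. SNHG14, the long noncoding gene of the cluster, fell by 0.16 (adjusted p = 0.00137 by limma-voom). At 24 h in CTCFAID2 cells SNORD109A was at 0.020 and SNORD116-20 at 0.047 (log2), SNORD64 was at 0.14, and none of the 3 passed, while SNHG14 rose by 0.18 (adjusted p = 0.00251 by limma-voom). In WT SEM cells at 24 h SNORD64 (0.50) and SNORD116-20 (0.20) rose, opposite in sign to the 6 h mean. With both DeltaZ1 IAA replicate 2 and DeltaRBR no IAA replicate 1 left out, SNORD64 no longer passed in the 6 h mean (adjusted p = 0.0728 by limma-voom).

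**Figure D5:**
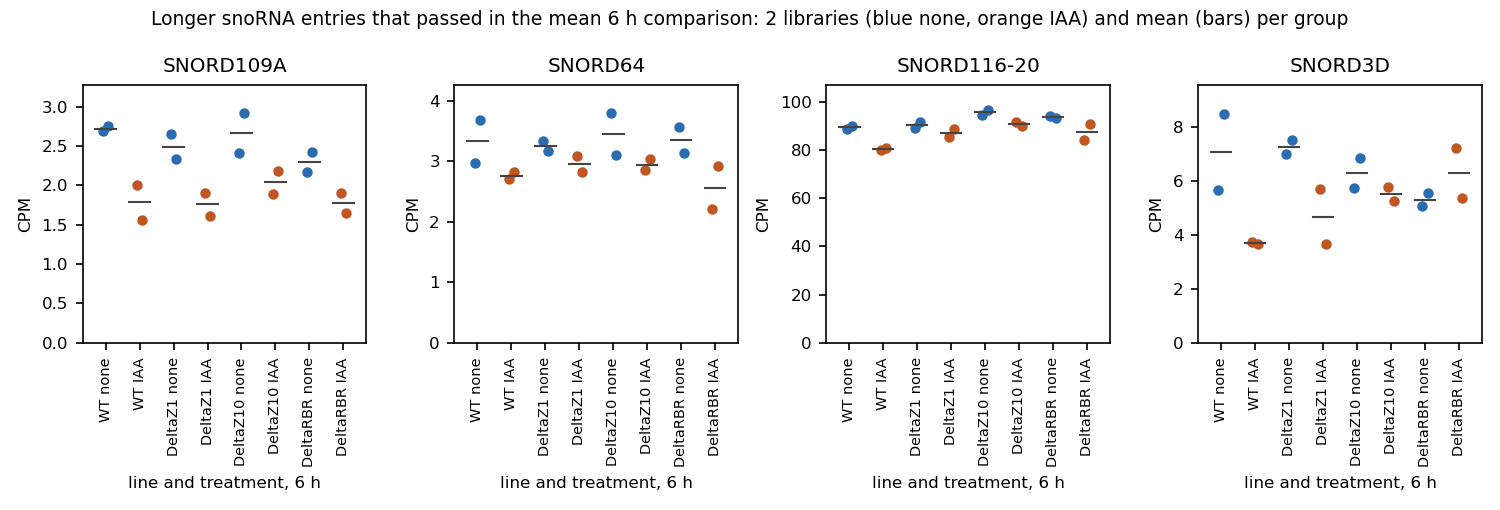
CPM of SNORD109A, SNORD64, SNORD116-20 and SNORD3D in the 6 h libraries, with 2 points per group (blue without IAA, orange with IAA) and bars for group means. The IAA mean is below the untreated mean in 4 of 4 lines for the first 3 genes and in 3 of 4 lines for SNORD3D.

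The remaining 3 members that fell on average at 6 h included precursor-processing RNAs. SNORD13 was at 14.7 to 33.5 CPM (median 23.4) without and 4.89 to 21.4 CPM (median 14.1) with IAA, lower in 3 of 4 lines, with a log2 fold change of -0.75 (SE 0.23, adjusted p = 0.0155 by limma-voom) and of -0.51 without DeltaZ1 IAA replicate 2. SNORA76 was at 9.28 to 10.9 CPM (median 10.2) without and 1.79 to 9.99 CPM (median 8.51) with IAA, lower in 4 of 4 lines (-0.54, adjusted p = 0.0108 by limma-voom, and -0.29 without that library). SNORD3D was at 5.05 to 8.45 CPM (median 6.29) without and 3.66 to 7.21 CPM (median 5.30) with IAA, lower in 3 of 4 lines (-0.40, adjusted p = 0.0111 by limma-voom). Its reads are split with the other U3 genes, so its value is not that of U3 as a whole. The SNORD3 genes summed to a mean of 16010.5 CPM without and 15980.3 CPM with IAA in WT. The means were 15477.5 and 15829.2 CPM in DeltaZ10. They were 15556.1 and 8396.5 CPM in DeltaZ1 and 10597.3 and 15810.7 CPM in DeltaRBR, lines that each hold a low library. SNORD13 and SNORA76 thus fell after auxin both at 24 h in CTCFAID2 cells and on average at 6 h, in sets that share no library. Of all genes 29.5% fell in the former and 26.4% in the latter, and the share that fell in both was not computed. In WT SEM cells at 24 h SNORD13 was at 0.089 and SNORA76 at 0.095 (log2), neither passing. With 2 libraries per group there, this does not show that they were unchanged.

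Among the other RNAs of precursor processing, the most abundant did not pass in CTCFAID2 cells or in the 6 h mean. SNORD3A was at 19686, 15173, 15852 and 15443 CPM without and 15962, 16512, 17946 and 17406 CPM with 5-Ph-IAA (0.021 on the log2 scale, SE 0.20). SNORA73B was at 522, 340, 368 and 384 CPM without and 401, 357, 419 and 413 CPM with it (-0.026, SE 0.11). SNORD118 (U8), needed for the large-subunit RNAs, was at 5.72, 1.91, 2.697 and 1.89 CPM without and 1.67, 1.56, 4.06 and 3.10 CPM with it (-0.20, SE 0.36). The groups overlapped for all 3. The 6 h means were -0.44 (SE 0.63) for SNORD3A, -0.049 (SE 0.29) for SNORA73B and -0.23 (SE 0.26) for SNORD118, and standard errors of this size leave moderate changes undetectable.

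The protein genes of snoRNA particles mostly fell in CTCFAID2 cells. There 7 of the 8 core protein genes fell, by 0.45 for FBL (fibrillarin, the methyltransferase), 0.40 for DKC1 (dyskerin, the pseudouridine synthase), 0.38 for NHP2L1, 0.37 for NOP56, 0.37 for NHP2, 0.32 for NOP58 and 0.25 for NOP10 on the log2 scale, each with an adjusted p of at most 0.000336 by limma-voom, where 29.5% of all genes fell and 29.2% rose. GAR1 was at 0.12 (adjusted p = 0.25). Of 14 particle assembly genes 10 fell and 0 rose, among them NOLC1 (-0.53), a nucleolar chaperone of these particles, and NUFIP1 (-0.50). Of 8 genes of snoRNA end processing 1 rose and 3 fell, and of 16 noncoding host genes 1 rose and 13 fell, among them DANCR (-0.63) and EPB41L4A-AS1 (-0.45). In WT cells at 24 h, where 9.57% of all genes fell and 9.35% rose, the core genes had 2 that fell, the assembly genes 1 that rose and 5 that fell, end processing 1 that fell (XRN1, -0.17) and the noncoding hosts 4 that rose, among them SNHG5 (0.31) and GAS5 (0.22). In the 6 h mean, where 26.4% of all genes fell and 25.1% rose, the core genes had 1 that rose (NOP10, 0.17) and 4 that fell (FBL, -0.49), the assembly genes 2 that rose and 3 that fell (NOLC1, -0.44), end processing 2 that rose and 1 that fell, and the noncoding hosts 2 that rose and 1 that fell.

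The host genes of the members are given beside them. Of 45 host genes tested in CTCFAID2 cells 28 fell and 7 rose (29.5% and 29.2% of all genes), with a median of -0.13. Among the 6 members that passed the hosted ones were SNORA71A, SNORA71C and SNORA71D, lower together with SNHG17, and SNORA53, higher while SLC25A3 fell. Each of these overlaps an exon of its host, so reads of host and snoRNA cannot be fully told apart. In WT cells at 24 h 4 of 45 hosts rose and 6 fell (9.35% and 9.57% of all genes), with a median of -0.013, beside a median of 0.40 for the members, and in the 6 h mean 8 of 45 rose and 14 fell (25.1% and 26.4% of all genes), with a median of -0.041. Counts of CTCF, whose protein is the target, rose by 0.77 in CTCFAID2 cells and by 0.64 in the 6 h mean. This does not check depletion because the degron acts on the protein. In the 6 h lines reads of the inducible CTCF vector may count to the same gene. The 6 h value therefore cannot be read as endogenous CTCF RNA alone.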

How the data were processed

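Total RNA from the 28 libraries was sequenced by the authors after ribosomal RNA depletion (per their methods, whereas the labels name a 3′ kit). Per the submitters' notes, reads were trimmed with Trim Galore (0.6.3), aligned to hg19 with STAR (2.7.9a) and quantified with RSEM (1.3.1) on Gencode annotation. The authors deposited per library the expected counts and TPM of each gene. Whether counting used strand is not given in the sources used here. Reads of near-identical genes are shared out by estimation, and short RNAs are retained unevenly by library purification. The 3 series tables of counts, FPKM and TPM repeat the 16 libraries of the 6 h set and were not used.

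Expected counts, as deposited, were rounded to whole numbers. CPM used the library total. Each set was fitted whole, with TMM factors, genes at 1 CPM or less in all libraries removed, and limma-voom with a mean per group (R 4.3.3, limma 3.58.1, edgeR 4.0.16). Genes passed at a Benjamini-Hochberg adjusted p of 0.05 and were called at an absolute log2 fold change of at least 1 in addition. Scripts were tested on simulated data. Alternatives were edgeR's quasi-likelihood test, DESeq2 (1.42.0), other scalings and filters, a replicate block and libraries left out. Scaling by the members other than the SNORD3 genes, and leaving out both low libraries, were chosen after seeing the data. No 2 libraries held identical counts.

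Members and gene lists were chosen with earlier results of these data known. Named are the 10 members with the highest mean CPM, up to 5 largest rises and falls among members that passed in each comparison with a mean of at least 1 CPM in the higher group, the precursor-processing snoRNAs, the 3 genes on each side of the threshold, the core proteins and up to 4 genes of each other list by adjusted p. Other members are named where a count of members is spelled out, chosen after their values were seen. Positions and hosts come from a GRCh37 annotation later than that of the authors, in which 73 members were found.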

Additional observations from a re-analysis of the deposited data

Results flagged for a closer look

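Within groups of 4 libraries, the highest or lowest value stood apart by Dixon's test at the 95% level in 5 of 36 groups tested. Chance gives about 1 in 20 for independent tests. Here the groups are genes and sums over the same libraries, some genes were included because they passed, and the member sum is mostly SNORD3A. The 5 flags are therefore not separate observations, and that rate does not apply to them. CTCFAID2 no IAA replicate 1 was the high value in 4 of them, with SNORD3A at 19686 CPM, SNORA48 at 136 CPM, SNORA71D at 7.00 CPM and the member sum at 21912 CPM. CTCFAID2 5-Ph-IAA replicate 1 was the high value for SNORD3B-1, a U3 gene whose reads are shared with its copies, at 102 CPM.

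The auxin effect of 10 members differed between CTCFAID2 and WT cells at 24 h by limma-voom, with a log2 difference of -1.63 for SNORA26, -1.62 for SNORA71D, -1.53 for SNORD3D, -1.51 for SNORA80B, -1.37 for SNORA64, -1.05 for SNORA84, -1.04 for SNORA71C, -0.94 for SNORA34, -0.92 for SNORA71A and -0.81 for SNORA23. The part played by the WT libraries with low and high member sums (7419 and 20063 CPM) was not tested beyond leaving each out.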

How the results depend on the processing

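The number of members that passed moved with the settings as follows (settings not listed stayed within 1.5 times the number in the report). For CTCFAID2 at 24 h (6) it was 3 with no filter, 10 with the replicate block, and 2 with member-total scaling with or without the SNORD3 genes. For WT at 24 h (7) it was 2 with no filter, 11 with a stricter filter, 11 with the replicate block, 2 with member-total scaling and 2 with the summed other short RNAs as a covariate. For the difference between these (10) it was 3 with no filter, 17 with the replicate block, 0 with member-total scaling, 4 without its SNORD3 genes and 3 with the short RNA covariate. For WT at 6 h (2) it was 1 with DESeq2, 0 with no filter, 0 with the replicate block, 0 with both member-total scalings and 5 without both low libraries. For DeltaZ1 (24) it was 4 with edgeR, 3 with DESeq2, 13 with no filter, 4 with the replicate block, 0 with member-total scaling, 4 without its SNORD3 genes, 2 with the short RNA covariate and 1 without both low libraries. For DeltaZ10 (0) it was 3 with the replicate block and 2 without both low libraries. For DeltaRBR (0) it was 1 with member-total scaling without the SNORD3 genes. For the 6 h mean (6) it was 10 with the replicate block, 0 with member-total scaling and 1 without its SNORD3 genes. For DeltaZ1 against the other lines (0) it was 1 with DESeq2 and 4 with member-total scaling without the SNORD3 genes. The cause was not tested.

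Leaving out each library in turn gave 2 to 13 for CTCFAID2 (2 without 5-Ph-IAA replicate 1, 13 without no IAA replicate 2), 1 to 22 for WT at 24 h, 2 to 20 for their difference (20 without WT IAA replicate 1), 0 to 3 for WT at 6 h, 1 to 52 for DeltaZ1 (1 also without DeltaZ1 no IAA replicate 2), 0 to 2 for DeltaZ10, 0 to 0 for DeltaRBR, 5 to 41 for the 6 h mean (41 without DeltaZ1 IAA replicate 1) and 0 to 49 for DeltaZ1 against the other lines. The median member sum of the libraries was 17251 CPM, and 17435 CPM without DeltaZ1 IAA replicate 2. Signs reversed for SNORA79 (-0.17) and SNORD64 (-0.21) in WT at 24 h and for SNORD64 (0.058) in the 6 h mean with member-total scaling, and for SNORA64 in DeltaZ1, which ran from -10.57 without DeltaZ1 IAA replicate 1 to 0.033 without DeltaZ1 IAA replicate 2 (0.033 also without both low libraries).

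The labels tie no replicate number to a shared culture or day, and same-numbered libraries did not all deviate together from their group means. Across genes the correlations were -0.17, 0.039, 0.061 and -0.15 in CTCFAID2 and 0.11 in WT at 24 h, and 0.14 (WT), -0.073 (DeltaZ1, with the low library), 0.10 (DeltaZ10) and 0.14 (DeltaRBR) at 6 h. A library correlated best with its own number in 6 of 12 cases at 24 h and 12 of 16 at 6 h. In groups of 2 libraries the deviations mirror each other, so the libraries of such a line count together and are not independent cases. The 6 h cases thus only restate the signs of the correlations above and cannot decide whether libraries were paired. The 6 h counts under the replicate block (0 for WT, 4 for DeltaZ1, 3 for DeltaZ10 and 10 for the mean) are set beside those without it.

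Limits: 2 libraries per group at 6 h, uneven recovery of short RNAs and reads shared among U3 genes bound what can be read from single members. At 24 h the standard errors of the members were 0.193 (median, log2) in CTCFAID2 cells, so small changes were not detectable.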
